A study of Arabidopsis thaliana with 12 samples.

Results

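The 34 genes described here encode the nucleus-encoded photosystem subunits of Arabidopsis thaliana and the light-harvesting proteins bound next to them: LHCA1 to LHCA6 at photosystem I, LHCB3 to LHCB6 at photosystem II, and the PSA and PSB subunits. They were taken by locus identifier from a fixed list, which gave 34 of the 36917 loci of the table, and all 34 passed the filter on low values. They lie on all 5 chromosomes, with 14, 4, 6, 6 and 4 of them on chromosomes 1 to 5. By photosystem, 18 belong to photosystem I and 16 to photosystem II; by role, 12 are antenna proteins and 22 are subunits of the photosystems themselves, called core here. RNA of whole plants at the 4-leaf stage was compared between wild type (Col-0) and plants with insertions in one or both of the genes for the co-chaperones DJC31 and DJC62. The groups were wild type, the insertion lines djc31 (SALK_034886) and djc62 (SALK_050913) and the djc31 djc62 double mutant, with 3 libraries each, 12 in all. The labels name 1 line per single mutant. All groups grew on soil with 16 h of light at 100 µmol photons per m2 and s and 21 °C, then 8 h of darkness at 16 °C. The labels name no other treatment, so the mutants were compared under ordinary growth conditions.

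Photosystem II takes electrons from water and photosystem I passes them on to ferredoxin, with the cytochrome b6f complex and plastocyanin in between. The reaction-centre proteins of both photosystems are encoded in the chloroplast, whereas most peripheral subunits and all chlorophyll-binding antenna proteins of the LHC family are encoded in the nucleus and imported. Nuclear genes for photosystem proteins are known to respond together to light, the circadian clock, the GLK transcription factors and the state of the chloroplast, and their transcripts are among the most abundant in leaves.

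Values are normalised reads per locus. Libraries held 13.6 to 31.08 M reads, fewest in djc31 replicate 2, and the lowest read number behind any value of the 34 genes was 1162 reads, for LHCB4.3 in that library, a counting error of 2.93%. Counting error was thus small beside the median spread between libraries, but not beside that of every gene. LHCB4.3 in djc31 had a coefficient of variation of 3.39%, close to that error. The coefficient of variation of a gene within a genotype had a median of 10.7% in wild type, 12.9% in djc31, 14.2% in djc62 and 7.38% in double-mutant plants. Whether the 3 replicates were sown apart is not said in the labels; the p-values then reflect only how far these libraries scatter, which could be technical scatter. DJC31 and DJC62 transcripts were low in the mutants named for them (log2 changes -2.69 in djc31 and -1.72 in djc62, and -3.92 and -2.77 in the double mutant, limma adjusted p = 1.94e-08, 5.26e-05, 1.25e-10 and 3.15e-07). Both were lower still in the double mutant than in the single mutant named for them (log2 changes -1.23 for DJC31 and -1.05 for DJC62, limma adjusted p below 0.05).

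Libraries of 1 genotype did not all lie together for these genes. The median of the 34 log2 differences from the wild-type mean was 0.46 and 0.40 in djc31 replicates 1 and 2 but 0.15 in replicate 3. In djc62 it was -0.0033 in replicate 1, where 22 of the 34 genes lay within the wild-type range, against -0.29 and -0.39 in replicates 2 and 3. The double mutant was tighter, at -0.52, -0.54 and -0.39, and wild type spanned -0.11 to 0.17. The genes moved together from library to library within a genotype: the deviations from the genotype mean had a median pairwise correlation of 0.829 over the gene pairs and 12 libraries, a description only, since all genes of a library share its RNA, depth and scaling. The heat map of the 34 genes by library shows these shifts as whole columns.

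**Figure D1:**
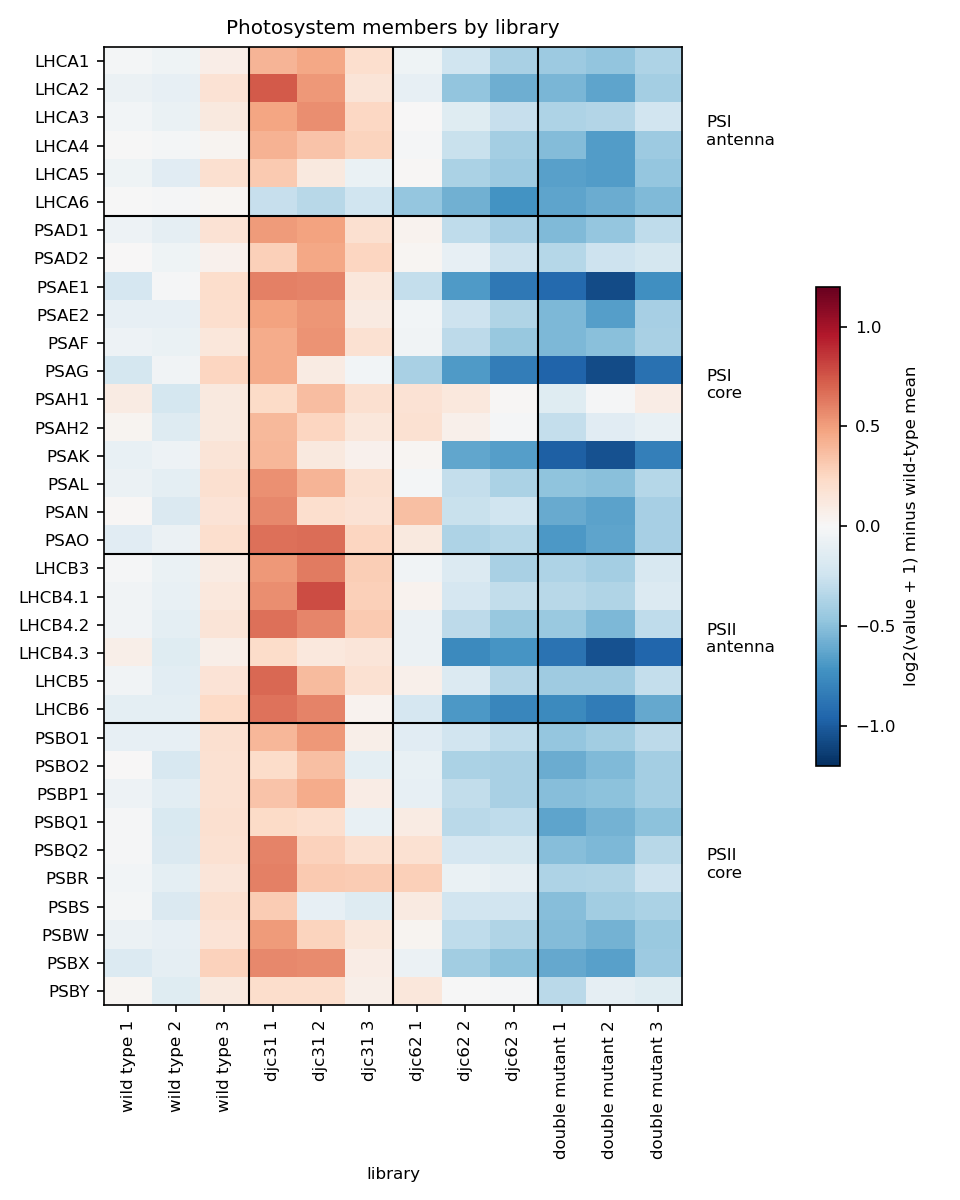
Each row is 1 of the 34 genes, grouped by photosystem and role, and each column 1 of the 12 libraries; the colour gives log2(value + 1) minus the wild-type mean, red above and blue below. Columns of the double mutant are blue and those of djc31 mostly red, with djc31 replicate 3 paler than the other djc31 libraries, djc62 replicate 1 close to wild type, and LHCA6 blue in all 9 mutant libraries.

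Most photosystem transcripts fell in djc31 djc62 plants. A smaller number were called higher in djc31, 20.6% where 13.3% of all loci were, and that count depended on the test and on single libraries. In the double mutant 23 of the 34 genes fell and none rose against wild type, with a median log2 change of -0.47, while in djc31 7 rose and 1 fell, with a median of 0.35. In djc62 5 fell and none rose, with a median of -0.22. In each comparison a gene counted as changed at an adjusted p below 0.05 in limma, fitted on log2(value + 1) over all 19975 loci tested and adjusted by Benjamini-Hochberg over all of them. At an unadjusted p below 0.05, limma also placed none of the genes higher in djc62 or the double mutant, and neither edgeR nor DESeq2 on the recovered reads called one higher there. The 3 comparisons share the wild-type libraries.

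In the double mutant 67.6% of these genes were called lower and none higher, where 15.5% of all loci tested were called lower and 13.8% higher, and the median over all loci was 0.02. All 34 log2 changes were below 0, and 31 genes had every double-mutant library below every wild-type library; the exceptions were PSAH1, PSAH2 and PSBY. In djc31, 20.6% of the genes were called higher and 2.94% lower, where 13.3% of all loci were higher and 14.2% lower. There 33 of 34 log2 changes were above 0, all but LHCA6, and 18 genes had every djc31 library above every wild-type library. The share of all loci whose libraries separate in this way was not counted, so the 31 and 18 genes are a description only. In djc62, 14.7% were called lower, close to the 13% of all loci called lower, and none was higher where 13.7% of all loci were, so the count of lower genes there is no result about this set, although 30 of 34 log2 changes were below 0. These plants were sampled whole, and in such bulk RNA fewer cells of a type and less RNA per cell cannot be told apart.

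The counts depended on the test and on single libraries. In djc31 20 genes were higher at an unadjusted p below 0.05, and on the recovered reads edgeR's quasi-likelihood test called 17 higher and DESeq2 21, against the 7 of limma. Without djc31 replicate 3, 16 genes were higher in djc31. The count was 3 without djc31 replicate 1, djc62 replicate 2 or any 1 of the 3 double-mutant libraries, which enter through the shared spread, and 0 without djc31 replicate 2 or without wild-type replicate 1 or 2. In djc62 3 genes were lower without wild-type replicate 1 or djc62 replicate 2, 2 without djc62 replicate 3 and 7 without djc62 replicate 1. No call in djc31 held under every alternative processing, whereas 2 calls in djc62 (LHCA6 and PSAG) and 8 in the double mutant (LHCA5, LHCA6, PSAE1, PSAE2, PSAG, PSAK, LHCB4.3 and PSBQ1) did. Those 8 and LHCB6 were the 9 genes still lower in the double mutant without wild-type replicate 3 or without double-mutant replicate 1 or 2, each of which ended the other 14 calls. Without wild-type replicate 1 there were 13. Scaling all libraries to equal totals moved the median of all loci from 0.02 to 0.29 in the double mutant and from -0.01 to -0.14 in djc31. The median of the 34 genes became -0.21 and 0.22, so that the distance to the median locus changed little, with 15 genes lower in the double mutant and 12 higher in djc31.

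**Figure D2:**
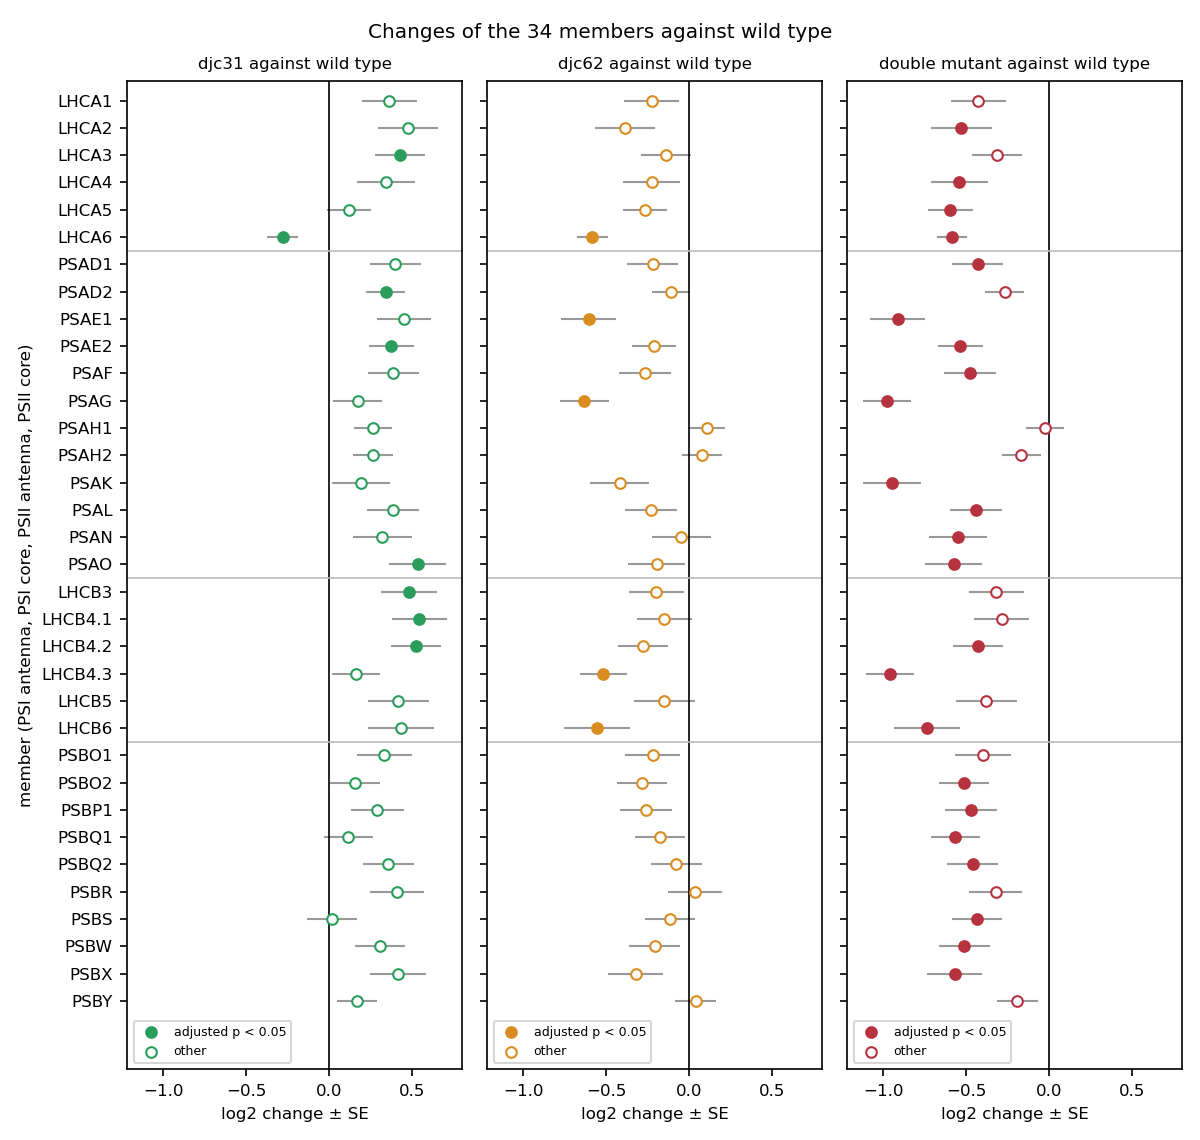
The log2 change of each gene against wild type with its standard error is shown for djc31, djc62 and the double mutant; filled points passed an adjusted p of 0.05. In the double mutant all 34 points lie left of 0, from -0.98 for PSAG to -0.03 for PSAH1, and in djc31 all but LHCA6 lie right of it, up to 0.54 for LHCB4.1.

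The 6 antenna proteins of photosystem I divide by role. LHCA1 to LHCA4 form the belt of antenna proteins along one side of photosystem I, while LHCA5 and LHCA6 are rarer and link photosystem I to the NDH complex of cyclic electron flow. LHCA6 behaved unlike the rest, being lower in all 3 mutants. LHCA6 (AT1G19150) had 5040.2, 5015 and 5143 normalised reads in wild type, 4179.8, 4024 and 4299 in djc31, 3680.0, 3396 and 3084 in djc62 and 3267, 3356 and 3505 in the double mutant. Every mutant library lay below every wild-type library, and djc31 lay between wild type and the other genotypes without overlap. LHCA6 stood at 82.3% of its wild-type mean in djc31 (log2 change -0.28 ± 0.09 SE, adjusted p = 0.0301), 66.9% in djc62 (log2 change -0.58 ± 0.09 SE, adjusted p = 0.000142) and 66.6% in the double mutant (log2 change -0.59 ± 0.09 SE, adjusted p = 0.000159). The call in djc31 was lost without djc31 replicate 2 (adjusted p = 0.0785) and without wild-type replicate 1, 2 or 3 (0.0752, 0.0615 and 0.0659), and those in djc62 and the double mutant held under every alternative. LHCA5 (AT1G45474) fell in the double mutant (log2 change -0.60 ± 0.13 SE, adjusted p = 0.00308), to 66.0% of wild type, and did not pass in djc31 (adjusted p = 0.559) or djc62 (0.155).

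Of the 4 belt proteins, LHCA3 was the 1 called higher in djc31. LHCA3 (AT1G61520) had 117313, 113399 and 130204 normalised reads in wild type, 166276, 176533 and 142916 in djc31, 120541, 108247 and 98859 in djc62 and 93159, 94027 and 102499 in the double mutant. All djc31 libraries lay above wild type and all double-mutant libraries below it, while djc62 overlapped wild type. The change was log2 change 0.43, adjusted p = 0.0438 in djc31 and log2 change -0.32, adjusted p = 0.128 in the double mutant. LHCA2 (AT3G61470) and LHCA4 (AT3G47470) fell in the double mutant, to 69.2% and 68.9% of wild type (adjusted p = 0.0367 and 0.0254). LHCA1 (AT3G54890) had 209053, 204530 and 224685 normalised reads in wild type, 282408, 294112 and 244407 in djc31, 204828, 180588 and 162078 in djc62 and 157049, 152626 and 164307 in the double mutant. The double mutant lay below wild type in every library and yet LHCA1 missed the threshold (log2 change -0.43, adjusted p = 0.0616). In djc31 LHCA1, LHCA2 and LHCA4 had log2 changes of 0.36, 0.47 and 0.34 with adjusted p = 0.120, 0.0628 and 0.157.

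Among the 12 core subunits of photosystem I, 9 fell in the double mutant, 2 in djc62 and none in djc31, where 3 rose. The stromal subunits PSAD and PSAE, which dock ferredoxin, are each encoded by a pair of genes. PSAE1 (AT4G28750) had 19885, 22586 and 26499 normalised reads in wild type, 34689.7, 34565 and 25142 in djc31, 18778, 14252 and 12592 in djc62 and 11973, 10844 and 13712 in the double mutant. The double mutant and djc62 lay below wild type in every library, and djc31 replicate 3 was within the wild-type range. PSAE1 fell by 0.61 on the log2 scale in djc62 (adjusted p = 0.0104, and 0.0677 without djc62 replicate 3) and by 0.91 in the double mutant (adjusted p = 0.000482), and in djc31 had log2 change 0.45, adjusted p = 0.0506. PSAE2 (AT2G20260) had 14581, 14582 and 18006 normalised reads in wild type, 21881, 22549 and 16832 in djc31, 15339, 13182 and 12167 in djc62 and 10747, 9873 and 11835 in the double mutant. The double mutant lay below every wild-type library, whereas djc31 replicate 3 and djc62 replicate 1 lay within the wild-type range. PSAE2 rose in djc31 (log2 change 0.37, adjusted p = 0.0493), a call lost under 15 of the 23 alternatives, among them the omission of any 1 library other than djc31 replicate 3, djc62 replicate 1 and wild-type replicate 3, and fell in the double mutant (log2 change -0.54, adjusted p = 0.00665) but not past the threshold in djc62 (log2 change -0.21, adjusted p = 0.269). Of the other pair, PSAD2 (AT1G03130) had 33719, 32442 and 34852 normalised reads in wild type, 41038, 46557 and 40289 in djc31, 34250.1, 31526 and 28063 in djc62 and 26528, 28338 and 29029 in the double mutant. Here djc31 was above and the double mutant below wild type in every library, and PSAD2 passed the test in djc31 (log2 change 0.34, adjusted p = 0.0391) but not in the double mutant (log2 change -0.27, adjusted p = 0.0945). PSAD1 (AT4G02770) fell in the double mutant to 74.1% of wild type (log2 change -0.43, adjusted p = 0.0448).

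The largest falls in photosystem I were those of PSAG and PSAK, a related pair of membrane subunits at either end of the LHCA belt. PSAG (AT1G55670) had 12756, 14309 and 17596 normalised reads in wild type, 20055, 15836 and 14381 in djc31, 11298, 9203 and 8289 in djc62 and 7580.0, 7026 and 7924 in the double mutant. All djc62 and double-mutant libraries lay below wild type, and djc31 overlapped it. PSAG was 1.55-fold lower in djc62 (log2 change -0.63 ± 0.15 SE, adjusted p = 0.00374) and 1.97-fold lower in the double mutant (log2 change -0.98 ± 0.15 SE, adjusted p = 9.85e-05), and both calls held under every alternative. PSAK (AT1G30380) had 88625, 90374 and 105035 normalised reads in wild type, 124813, 102479 and 97730.2 in djc31, 95839, 61410.4 and 59852 in djc62 and 47903, 45788 and 53424 in the double mutant. In djc62 replicates 2 and 3 were far below wild type and replicate 1 was within its range, and all double-mutant libraries were lower than all others. PSAK was 1.93-fold lower in the double mutant (log2 change -0.95 ± 0.18 SE, adjusted p = 0.000683) and had log2 change -0.42, adjusted p = 0.0903 in djc62.

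The subunits PSAH, PSAL and PSAO form the side of photosystem I where mobile light-harvesting complex II binds during state transitions. PSAO (AT1G08380) had 79067, 82500 and 99809.6 normalised reads in wild type, 137337, 138084 and 103820 in djc31, 94006, 67238 and 68479 in djc62 and 53684, 55986 and 65657 in the double mutant. Of the core subunits of photosystem I, PSAO had the largest rise in djc31, 1.45-fold (log2 change 0.53 ± 0.17 SE, adjusted p = 0.0281), with all djc31 libraries above wild type, and it fell 1.49-fold in the double mutant, with no overlap (log2 change -0.57 ± 0.17 SE, adjusted p = 0.0183). PSAL (AT4G12800) fell in the double mutant to 73.4% of wild type (log2 change -0.44, adjusted p = 0.0410). Both genes for PSAH stood outside the common fall. PSAH1 (AT3G16140) had 14024, 11296 and 14210.1 normalised reads in wild type, 15344, 16905 and 14926 in djc31, 14753, 14290.5 and 13242 in djc62 and 11835, 12972 and 13900 in the double mutant. The double mutant and djc62 overlapped wild type, and only djc31 lay above it in every library. PSAH1 had log2 change -0.03 ± 0.11 SE, adjusted p = 0.891 in the double mutant, and with scaling to equal totals this became 0.24, called higher (adjusted p = 0.0437), at a median of all loci of 0.29. PSAH2 (AT1G52230) had 28296, 24780.4 and 30044 normalised reads in wild type, 36223, 33083 and 30351 in djc31, 31311, 28747 and 27427 in djc62 and 22680.2, 25216 and 25948 in the double mutant. Again the double mutant overlapped wild type (log2 change -0.17, adjusted p = 0.314) and djc31 lay above it (log2 change 0.26, adjusted p = 0.115). PSAF (AT1G31330) and PSAN (AT5G64040), which take part in plastocyanin docking at the lumenal side, fell in the double mutant to 71.8% and 68.2% of wild type (adjusted p = 0.0293 and 0.0262); in djc62 PSAN was at 98.3%, with replicate 1 above all wild-type libraries and replicates 2 and 3 below them.

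At photosystem II the antenna proteins supplied all the calls in the single mutants. LHCB3 is part of a class of light-harvesting complex II trimers at the periphery, and LHCB4, LHCB5 and LHCB6 are the monomeric proteins CP29, CP26 and CP24 between trimers and core. LHCB3, LHCB4.1 and LHCB4.2 rose in djc31, with no overlap with wild type. LHCB4.2 (AT3G08940) had 79309, 75590.3 and 91126 normalised reads in wild type, 129205, 122800 and 101712 in djc31, 77989.7, 65839.5 and 59561 in djc62 and 60216, 56235 and 66176 in the double mutant. The djc31 libraries were all above and the double-mutant libraries all below wild type, while djc62 replicate 1 lay within the wild-type range. LHCB4.2 was 1.43-fold higher in djc31 (log2 change 0.52 ± 0.15 SE, adjusted p = 0.0160) and 1.35-fold lower in the double mutant (log2 change -0.43 ± 0.15 SE, adjusted p = 0.0417). LHCB4.1 (AT5G01530) had 116085, 112513 and 130713 normalised reads in wild type, 175797, 205761 and 145710 in djc31, 123078, 104212 and 97339.8 in djc62 and 94619, 93013 and 106993 in the double mutant. The order was the same, with log2 change 0.54, adjusted p = 0.0205 in djc31 and log2 change -0.29, adjusted p = 0.211 in the double mutant, which missed the threshold. LHCB3 (AT5G54270) had means of 175103 ± 10885 (SD, n = 3) in wild type, 244839 ± 28031 in djc31, 153218 ± 18575 in djc62 and 140430 ± 11392 in double-mutant plants. It rose in djc31 (log2 change 0.48, adjusted p = 0.0407) but missed the threshold in the double mutant, with an adjusted p of 0.165.

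LHCB4.3, the third gene for CP29, had another pattern. LHCB4.3 (AT2G40100) had 2409, 2070.2 and 2406 normalised reads in wild type, 2660.0, 2496 and 2528 in djc31, 2174, 1344 and 1402 in djc62 and 1238, 1107 and 1186 in the double mutant. Every djc31 library lay above wild type by a little, djc62 replicates 2 and 3 and the whole double mutant lay far below it, and djc62 replicate 1 lay within its range. LHCB4.3 was 1.95-fold lower in the double mutant (log2 change -0.96 ± 0.14 SE, adjusted p = 9.93e-05), a call that held under every alternative, and 1.43-fold lower in djc62 (log2 change -0.52 ± 0.14 SE, adjusted p = 0.0130; 0.0802 without djc62 replicate 2, 0.076 without replicate 3 and 0.0514 without wild-type replicate 1). In djc31 it had log2 change 0.16, adjusted p = 0.442. LHCB6 (AT1G15820) had 131884, 131920 and 168908 normalised reads in wild type, 225507, 217036 and 147019 in djc31, 124555, 88619 and 83466 in djc62 and 84328, 80169.6 and 93733 in the double mutant. LHCB6 was below wild type in every djc62 and double-mutant library, and djc31 replicate 3 lay within the wild-type range. It fell in the double mutant (log2 change -0.74 ± 0.20 SE, adjusted p = 0.00979) and in djc62 (log2 change -0.56 ± 0.20 SE, adjusted p = 0.0455), the latter call being lost without any 1 of djc62 replicates 2 and 3, the wild-type libraries or the double-mutant libraries (adjusted p = 0.0592 to 0.18). LHCB5 (AT4G10340) passed no test against wild type (log2 changes 0.42, -0.15 and -0.38, adjusted p = 0.105, 0.589 and 0.134).

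The extrinsic proteins of the oxygen-evolving complex, which shield the manganese cluster on the lumenal side, are PSBO, PSBP and PSBQ. None of their 5 genes passed the test in djc31 or djc62, and 4 of the 5 fell in the double mutant, all but PSBO1. PSBQ1 (AT4G21280) had 54599, 48615 and 62758 normalised reads in wild type, 64625, 63228 and 51649 in djc31, 58947, 43978 and 44545 in djc62 and 35444, 37067 and 39129.6 in the double mutant. The double mutant was lower than every other library, and djc31 and djc62 overlapped wild type. PSBQ1 was 1.48-fold lower in the double mutant (log2 change -0.57 ± 0.15 SE, adjusted p = 0.00861), which held under every alternative. PSBO2 (AT3G50820) had 57469, 50340 and 65259 normalised reads in wild type, 66866, 73725 and 52818 in djc31, 53869, 44001 and 43811 in djc62 and 37930.5, 39701 and 43261 in the double mutant. The double mutant again lay below all other libraries, and both single mutants overlapped wild type. PSBO2 had log2 change -0.51, adjusted p = 0.0169 in the double mutant and log2 change -0.29, adjusted p = 0.175 in djc62. PSBO1 (AT5G66570) had 148456, 148515 and 181716 normalised reads in wild type, 209395, 228300 and 166354 in djc31, 144930, 135350 and 128988 in djc62 and 114946, 119142 and 127450 in the double mutant. All djc62 and double-mutant libraries lay below wild type, and PSBO1 missed the threshold in both (log2 change -0.22, adjusted p = 0.357, and log2 change -0.40, adjusted p = 0.0808). PSBP1 (AT1G06680) and PSBQ2 (AT4G05180) fell in the double mutant to 71.9% and 72.4% of wild type (adjusted p = 0.0322 and 0.0316).

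The remaining 5 proteins of photosystem II are PSBR, which helps hold PSBP in place, PSBS, the sensor of thermal energy dissipation, and the small membrane subunits PSBW, PSBX and PSBY. PSBS, PSBW and PSBX fell in the double mutant, and none of the 5 passed in djc31 or djc62. PSBX (AT2G06520) had 50302, 52292 and 68130.1 normalised reads in wild type, 84304, 83739 and 59825 in djc31, 53791, 42333 and 40140.4 in djc62 and 36792, 35811 and 41590.4 in the double mutant. The double mutant lay below all wild-type libraries, and djc31 replicate 3 and djc62 replicate 1 lay within the wild-type range. PSBX was 1.48-fold lower in the double mutant (log2 change -0.57 ± 0.17 SE, adjusted p = 0.0165), with log2 change 0.41, adjusted p = 0.0768 in djc31 and log2 change -0.32, adjusted p = 0.168 in djc62. PSBR (AT1G79040) had 121858, 114475 and 137725 normalised reads in wild type, 189375, 154050 and 153430 in djc31, 151593, 118011 and 115422 in djc62 and 96405, 96894 and 104926 in the double mutant. Every djc31 library was above and every double-mutant library below wild type, yet neither passed (log2 change 0.41, adjusted p = 0.0719, and log2 change -0.32, adjusted p = 0.147). PSBS (AT1G44575) was the gene nearest to wild type in djc31, at 102% (log2 change 0.02, adjusted p = 0.949), and fell to 73.5% in the double mutant (log2 change -0.44, adjusted p = 0.0363), while PSBW (AT2G30570) fell to 70.0% (log2 change -0.51, adjusted p = 0.0175). PSBY (AT1G67740) had 42322, 37568 and 45057 normalised reads in wild type, 48031, 48132 and 43677 in djc31, 45552, 41286 and 41201 in djc62 and 33096, 38629 and 37582 in the double mutant. PSBY overlapped wild type in all 3 mutants and passed no test against it in djc31, djc62 or the double mutant (log2 change 0.17, adjusted p = 0.344, log2 change 0.04, adjusted p = 0.854 and log2 change -0.19, adjusted p = 0.257, in that order).

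**Figure D3:**
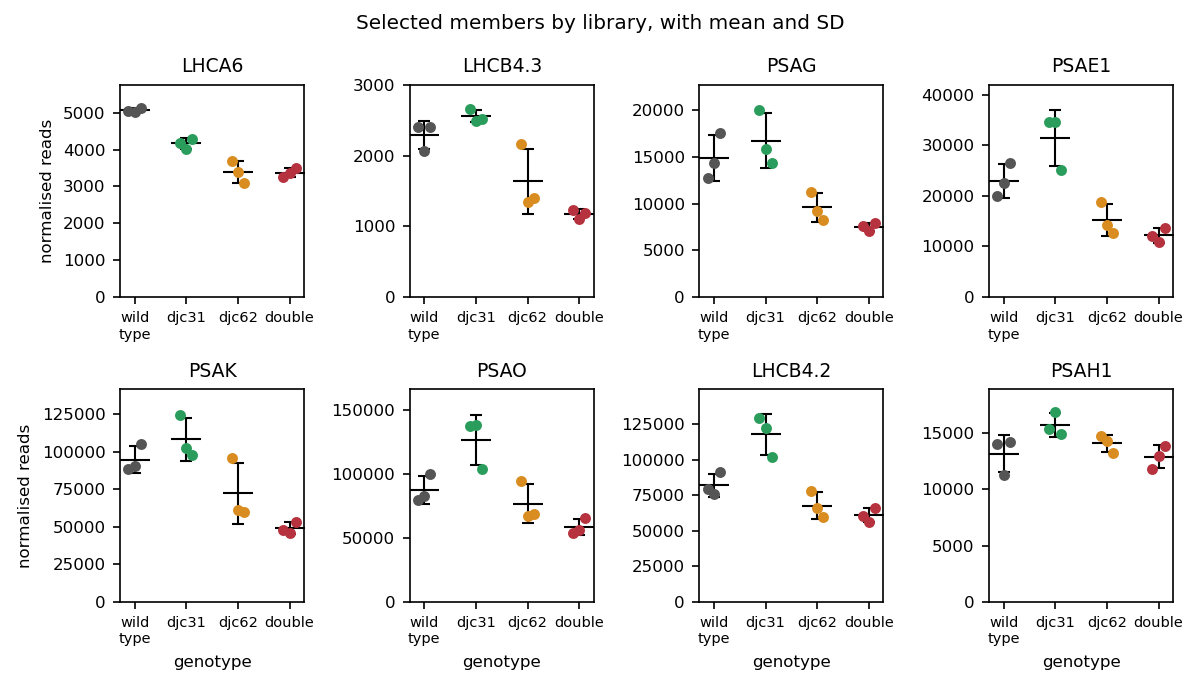
Normalised reads of 8 genes are plotted by genotype, each point being 1 library and the bar the mean with SD (n = 3). LHCA6 is lower in every mutant library, LHCB4.3, PSAG, PSAE1 and PSAK are lowest in the double mutant, PSAO and LHCB4.2 are above wild type in djc31, and PSAH1 overlaps wild type in djc62 and the double mutant.

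Set against djc31 rather than wild type, the double mutant was lower for nearly every gene. There 33 of 34 fell, or 97.1% where 16% of all loci were lower and 15.3% higher, with a median log2 change of -0.82 against 0.03 over all loci, and 25 of these calls held under every alternative. PSAE1 had the largest change (log2 change -1.36 ± 0.16 SE, adjusted p = 1.89e-05, 2.57-fold lower), followed by LHCB6 (-1.17) and PSAG (-1.15). PSAH1 was the exception (log2 change -0.29, adjusted p = 0.0643), although all its double-mutant libraries also lay below those of djc31. Under equal totals LHCA6 and PSBY turned to 0.0955 and 0.0423 in this comparison, neither called. Against djc62 the double mutant differed little by the test. PSAK (log2 change -0.53, adjusted p = 0.0430) and LHCB4.3 (log2 change -0.44, adjusted p = 0.0383) fell, 5.88% of the genes where 10.4% of all loci were lower and 9.38% higher, and both calls were lost without djc62 replicate 1 or without any 1 double-mutant library, and 1 of them without wild-type replicate 1 or 2. Still, all 34 log2 changes were below 0, with a median of -0.23 against -0.0021 over all loci. These genes moved together from library to library, so their signs are not 34 separate results. In 18 genes all double-mutant libraries lay below all djc62 libraries. The share of all loci that separate in this way was not counted, so this number is a description only. LHCA6 had a log2 difference of -0.0015 ± 0.09 SE between djc62 and the double mutant (adjusted p = 0.994).

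The single mutants differed from each other. From djc31 to djc62, 24 genes were lower and none higher, 70.6% where 5.85% of all loci were lower and 7.91% higher, with a median log2 difference of -0.57 against 0.01 over all loci. PSAE1 (log2 change -1.05, adjusted p = 0.000740), LHCB6 (log2 change -0.99, adjusted p = 0.00393) and LHCA2 (log2 change -0.86, adjusted p = 0.00561) differed most. The 10 that did not pass were LHCA5, PSAH1, PSAH2, PSAN, PSBO2, PSBQ1, PSBQ2, PSBR, PSBS and PSBY. All 6 photosystem II antenna genes passed, and 4 of the 10 photosystem II core genes. The count was 14 without djc31 replicate 2, 11 without djc62 replicate 2 and 6 without djc62 replicate 3. Without djc62 replicate 1, the library near wild type, it was 28.

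The changes of the single mutants did not add up to that of the double mutant. The non-additive contrast takes the double mutant's log2 change and subtracts those of djc31 and djc62 added together. DJC31 and DJC62 transcripts were themselves lower in the double mutant than in the single mutants, so the contrast may not compare equal losses. The part of that difference in the contrast was not tested. It was below 0 for 33 of 34 genes, with a median of -0.60 against -0.0032 over all loci, and 19 passed the test, all lower. That is 55.9% of the genes, where 15.4% of all loci were lower and 15.8% higher. PSAO (log2 change -0.91 ± 0.24 SE, adjusted p = 0.00891), PSAE2 (log2 change -0.70 ± 0.19 SE, adjusted p = 0.0107) and PSBQ2 (log2 change -0.74 ± 0.22 SE, adjusted p = 0.0155) had the lowest adjusted p. LHCA6 was the only gene above 0, with log2 change 0.28 ± 0.13 SE, adjusted p = 0.113. The PSAE2 value alone held under every alternative. The count fell to 4 without double-mutant replicate 2, 5 without wild-type replicate 2 or djc62 replicate 1, 6 without wild-type replicate 1, 7 without double-mutant replicate 1, 9 without djc62 replicate 2, and 10 without djc31 replicate 1 or 2. It rose to 29 without djc31 replicate 3.

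Photosystem I and II had similar counts and medians. In the double mutant 13 of 18 photosystem I genes and 10 of 16 photosystem II genes fell, with median log2 changes of -0.53 and -0.45. For antenna and core genes these were 7 of 12 (-0.48) and 16 of 22 (-0.47). In djc31 4 photosystem I genes rose and 1 fell, and 3 photosystem II genes rose, with medians of 0.35 and 0.34. Within photosystem II, 3 of 6 antenna genes rose in djc31 (median 0.45), and of the 10 core genes, all with log2 changes above 0 (median 0.30), none passed. No test was made of the groups against each other, since the genes were listed with earlier results of these data known.

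Values were also summed per library. The 34 genes took 11.4% ± 0.423 (SD, n = 3) of all reads in wild type, 13.5% ± 0.531 in djc31, 10.3% ± 0.896 in djc62 and 9.95% ± 0.368 in double-mutant plants. All djc31 libraries (12.9% to 13.8%) lay above and all double-mutant libraries (9.62% to 10.3%) below wild type (11.05% to 11.8%), and djc62 (9.60% to 11.3%) overlapped it. The ratio of summed photosystem I to photosystem II reads was 0.907 ± 0.0281 in wild type, 0.903 ± 0.0275 in djc31, 0.886 ± 0.0175 in djc62 and 0.863 ± 0.00951 in double-mutant plants. The double-mutant libraries (0.853 to 0.871) lay below the wild-type range (0.877 to 0.933). The ratio of antenna to core within photosystem II was 0.895 ± 0.0155 in wild type, 1.01 ± 0.0332 in djc31, 0.843 ± 0.0356 in djc62 and 0.906 ± 0.0297 in double-mutant plants. Here djc31 (0.975 to 1.04) was above and djc62 (0.803 to 0.870) below every wild-type library (0.880 to 0.911). Within photosystem I antenna to core was 1.09 ± 0.0496, 1.11 ± 0.0253, 1.08 ± 0.0523 and 1.14 ± 0.0405 in the same order, with all mutants overlapping wild type. Such sums are not corrected for gene length and are set by the most abundant genes, so the ratios compare genotypes and not amounts of the proteins. The photosystem II sums hold only its genes among the 34, without the major antenna genes LHCB1 and LHCB2. LHCB1.3 alone averaged 647961 normalised reads in wild type. Ratios with the major antenna included could therefore differ between genotypes in another way, and they were not computed.

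**Figure D4:**
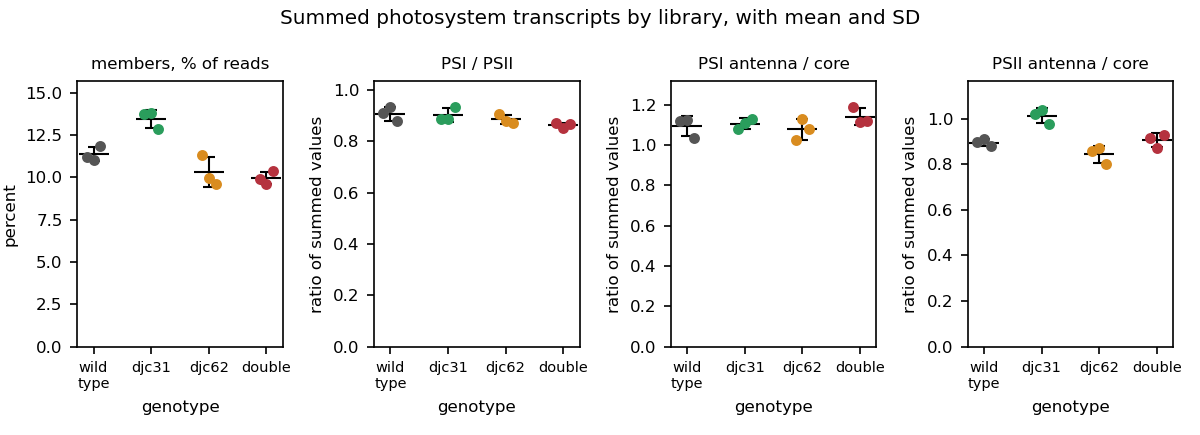
From left to right, the panels give the percent of all reads in the 34 genes, the ratio of summed photosystem I to photosystem II values, and the ratios of antenna to core within photosystem I and within photosystem II, by library with mean and SD (n = 3). The share of reads is highest in djc31 and lowest in the double mutant, the photosystem I to II ratio is slightly lower in the double mutant, and the photosystem II antenna to core ratio is highest in djc31. The photosystem II sums leave out LHCB1 and LHCB2.

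Where a subunit has more than 1 gene, the genes could move apart. The ratio of the gene pair per library was compared over the 4 genotypes with an exact permutation test over all 15400 partitions of the libraries, for 7 pairs with Benjamini-Hochberg adjustment over the pairs. PSAE1 to PSAE2 was the 1 pair to pass (exact permutation p = 0.00383, adjusted 0.0268). The ratio was 1.46 ± 0.0930 (SD, n = 3) in wild type and 1.54 ± 0.0460 in djc31, but 1.11 ± 0.0987 in djc62 and 1.12 ± 0.0313 in the double mutant. All 6 libraries that carry the djc62 mutation had ratios of 1.03 to 1.22, below the 1.36 to 1.59 of the other 6, so PSAE1 fell relative to PSAE2 in plants with djc62. Leaving out any 1 library gave adjusted p = 0.00591 to 0.0441.

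For CP29 the ratio of LHCB4.1 to LHCB4.3 was 52.3 ± 3.55 in wild type, 68.7 ± 12.6 in djc31, 67.9 ± 10.6 in djc62 and 83.6 ± 6.93 in double-mutant plants. All mutant libraries lay above wild type, with 56.6 the lowest of them against 54.3 the highest in wild type, but the pair missed the threshold (exact permutation p = 0.0204, adjusted 0.0714). PSBQ1 to PSBQ2 was 0.964 ± 0.00684 in wild type, 0.818 ± 0.0852 in djc31, 0.900 ± 0.0136 in djc62 and 0.897 ± 0.0421 in double-mutant plants, again with no mutant library in the wild-type range (adjusted exact permutation p = 0.104). PSBO1 to PSBO2 had an adjusted p of 0.11, and PSAD1 to PSAD2, PSAH1 to PSAH2 and LHCB4.1 to LHCB4.2 each 0.167, by the same exact test. Without djc31 replicate 2, the shallowest library, PSBQ (0.005), LHCB4.1 to LHCB4.2 (0.005) and LHCB4.1 to LHCB4.3 (0.0225) passed as well. How reads that match both genes of a pair were counted was not stated in the sources used here, so reads may be split between the genes of a pair.

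**Figure D5:**
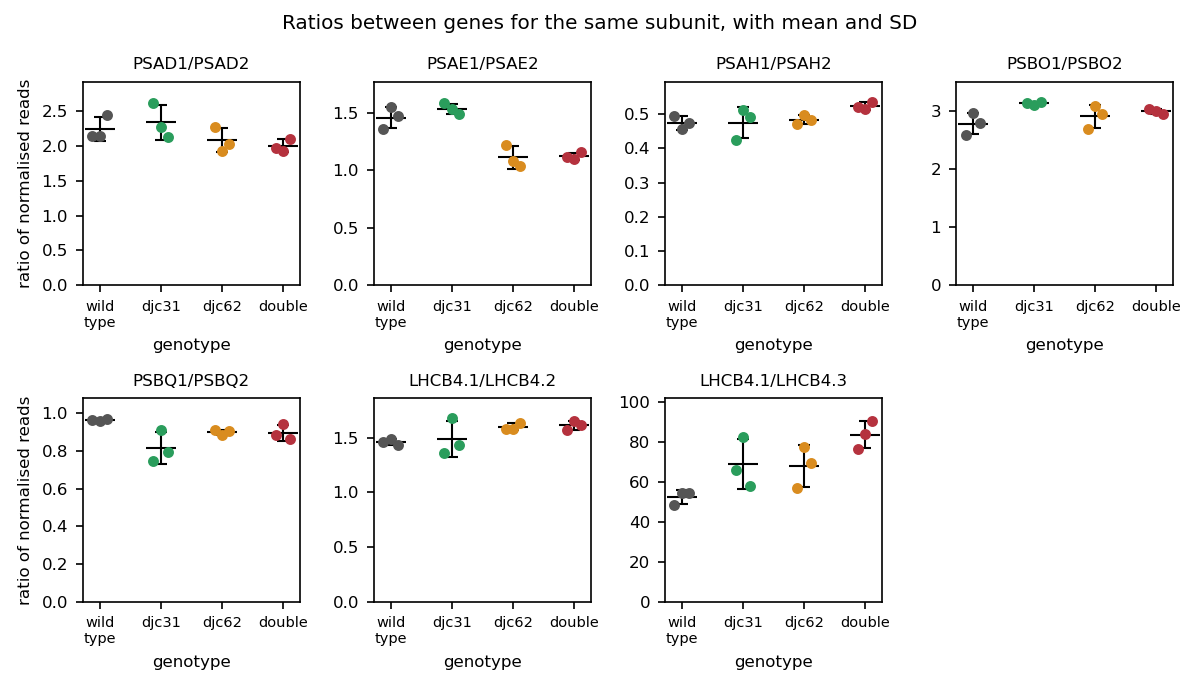
Each panel shows the ratio of normalised reads of 2 genes for the same subunit by genotype, 1 point per library with mean and SD (n = 3). PSAE1/PSAE2 averages 1.11 in djc62 and 1.12 in the double mutant against 1.46 in wild type and 1.54 in djc31, and the other 6 pairs did not pass the permutation test.

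Other genes of the photosynthetic machinery were read from lists beside these 34, and their counts stand against the 15.5% of all loci called lower in the double mutant, 13% in djc62 and 14.2% in djc31, where 13.3% were higher. The major antenna of photosystem II, LHCB1 and LHCB2, moved in the same directions: of 7 genes tested 5 rose in djc31 (LHCB1.1 to LHCB1.4 and LHCB2.1), 1 fell in djc62 (LHCB2.3) and 3 fell in the double mutant (LHCB1.1, LHCB1.2 and LHCB2.3), with medians of 0.64, -0.29 and -0.55. LHCB1.4 had the largest of these rises (log2 change 1.17 ± 0.18 SE, adjusted p = 0.000114); LHCB1 genes are near-identical, and reads may be split between them. Of 11 genes of the cytochrome b6f complex, the electron carriers and ATP synthase, 8 fell in the double mutant (median -0.62), among them ferredoxin FD2 (log2 change -0.86, adjusted p = 0.00136) and the Rieske protein PETC (log2 change -0.73, adjusted p = 0.00283). In djc31 1 rose, the ferredoxin reductase FNR2, and 1 fell, the ferredoxin FD1, and in djc62 1 fell. Of 15 genes for assembly and antenna insertion 10 fell in the double mutant, led by LQY1, a thiol exchange protein of photosystem II repair (log2 change -0.89 ± 0.13 SE, adjusted p = 5.25e-05), and LPA1, which assists D1 insertion (log2 change -0.56, adjusted p = 0.000515). In djc31 3 of them rose and 1 fell, and in djc62 4 fell. Of 9 regulators of the thylakoid 5 fell in the double mutant, among them PBCP, a phosphatase of photosystem II core proteins (log2 change -0.80, adjusted p = 1.21e-05), and PGR5, needed for cyclic electron flow (log2 change -0.73, adjusted p = 0.000406). In djc31 3 of these regulators fell (PBCP, PGRL1B and ZEP), opposite to most of the 34 genes, and in djc62 2 fell. None rose in djc31 by limma's adjusted p, and 1, the kinase gene STN8, had an unadjusted p below 0.05 with a log2 change above 0 (log2 change 0.26, adjusted p = 0.0659).

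Among 12 further photosystem proteins 9 fell in the double mutant, 5 in djc62 and 4 in djc31, and none rose. In djc31 9 of the 12 log2 changes were below 0, with a median of -0.07, unlike most of the 34 genes. Those that fell in djc31 included PSBP2 and LHCB7, relatives of genes among the 34. PSBP2, a second gene for PSBP, fell from 619 ± 47.6 (SD, n = 3) in wild type down to 233 ± 14.4 in djc31, 213 ± 26.2 in djc62 and 360.2 ± 61.7 in double-mutant plants (log2 changes -1.40, -1.54 and -0.79, limma adjusted p = 2.54e-06, 1.1e-06 and 0.000969). LHCB7, a rare LHC family member, fell from 949 ± 57.4 to 528 ± 22.7, 498 ± 32.2 and 398 ± 46.8 (limma adjusted p = 4.43e-05, 1.85e-05 and 7.85e-07). Like LHCA6, both were lower in djc31, where the abundant PSBP1 and LHCB genes had positive log2 changes. The light-stress protein gene ELIP1 also fell in djc31 (log2 change -1.76, adjusted p = 3.78e-05) and djc62 (log2 change -1.06, adjusted p = 0.00393), but not in the double mutant (log2 change 0.16, adjusted p = 0.667).

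Of 16 regulators of photosynthesis genes, 6 fell and 1 rose in djc31, 5 fell and 1 rose in djc62, and 4 fell and 1 rose in the double mutant. Their median log2 changes were -0.37, -0.25 and -0.08. The gene that rose was in each case GLK2, an activator of LHC and photosystem genes. It had 2489.5 ± 238 (SD, n = 3) in wild type, 3466 ± 75.2 in djc31, 3529 ± 176 in djc62 and 3305 ± 122 in double-mutant plants (limma adjusted p = 0.00104, 0.000722 and 0.00374). Its part in the photosystem changes was not tested. GLK1 passed no test (adjusted p = 0.118, 0.117 and 0.773). The sigma factor genes SIG5 (log2 changes -1.28, -1.29 and -0.81) and SIG1 (-0.47, -0.39 and -0.48), whose products direct chloroplast transcription, fell in all 3 mutants (limma adjusted p = 6.06e-06, 6.8e-06 and 0.000698 for SIG5, 0.000800, 0.00362 and 0.000743 for SIG1). All chloroplast-encoded loci of the table together made up 0.0205% to 0.0470% of reads per library. Of 17 chloroplast-encoded photosystem genes tested 1 fell in djc31, 6 in djc62 and 5 in double-mutant plants, among them psbB for CP47 (log2 change -1.45, adjusted p = 0.000113 in djc62, and log2 change -1.11, adjusted p = 0.00132 in the double mutant). How well the library preparation captures chloroplast transcripts was not tested.

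The clock genes differed between wild type and all 3 mutants, and photosystem genes are known to cycle through the day. LHY fell by 1.76, 0.73 and 1.23 on the log2 scale in djc31, djc62 and the double mutant, and CCA1 by 1.43, 0.56 and 0.85. PRR5 rose by 4.05, 3.86 and 1.88, and TOC1 by 0.67, 0.90 and 0.68 (limma adjusted p = 7.5e-09 to 0.0164 for these 12 values). Of 10 clock genes tested 4 rose and 3 fell in each single mutant, and 3 rose and 3 fell in the double mutant. Of all loci 13.3% were called higher and 14.2% lower in djc31. These shares were 13.7% and 13% in djc62 and 13.8% and 15.5% in the double mutant. The part of the clock genes in the photosystem changes was not tested.

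Markers of other organs were read for the whole plants. Of the 8 root markers 3 passed the filter, and the sum over all 8 was 2244 to 2435 in wild type, 2127 to 2817 in djc31, 3143 to 3439 in djc62 and 4742 to 5320.0 in the double mutant. The rise was in PYK10, a beta-glucosidase of the ER bodies of roots and seedlings, from 1422 ± 154 (SD, n = 3) in wild type to 4293 ± 333 in the double mutant (limma adjusted p = 4.95e-08). The root hair and endodermis markers COBL9, EXPA7, PRP3 and CASP1 were near 0 in every library, with a sum of 0 to 25.2 per library that did not rise with it. How much root tissue the libraries hold was not tested. Of the 3 guard cell markers MYB60 and KAT1 were lower in the double mutant (log2 change -0.84, adjusted p = 0.000355, and log2 change -0.69, adjusted p = 0.00938), and the summed level ran from 1359 to 1569 in wild type and 974 to 1092 in the double mutant; its part in the photosystem changes was not tested. Of 6 senescence genes 1 rose in the double mutant, SAG13 (log2 change 1.79, adjusted p = 0.0439), the sum being 3021 to 3492 in wild type and 3508 to 3744 in the double mutant, and SAG12 was at 0 in every library. The 4 flower and seed markers summed to 20.9 to 26.4 per library in wild type and 0 to 5.07 in djc31. The sums were 1.70 to 12.3 in djc62 and 1.74 to 5.02 in the double mutant, low values throughout. The part of these markers in the photosystem changes was not tested.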

How the data were processed

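RNA-seq of 12 libraries was analysed from 1 deposited table that holds a normalised signal for each of 36917 loci in each library. Trimmomatic, FastQC, featureCounts and the build TAIR10 are named in the submitters' processing notes; tool versions, aligner, strand setting and the handling of multi-mapping reads were not stated in the sources used here. Dividing the deposited values by the smallest step of their library made 100% of them whole (tolerance 0.01), so read numbers could be recovered, and in 12 of 12 libraries the step matched the median-of-ratios factor. No column of per-sample values was left unassigned.

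The filter kept 19975 loci, those reaching 10 in 3 or more libraries. The test was limma 3.58.1 (trended prior variance) in R 4.3.3 on log2(value + 1), over all 12 libraries with 1 mean per genotype (8 residual degrees of freedom) and Benjamini-Hochberg adjustment within each comparison at a threshold of 0.05. Fold changes on this scale understate the change of low genes. Paralogue ratios were tested in Python 3.11.15 with numpy 2.4.6. The scripts were tested on simulated data. Alternatives were edgeR 4.0.16 and DESeq2 1.42.0 on the recovered reads, other pseudocounts (0.5 and 10), filters and scalings, a fit of the compared genotypes only, a replicate block, and leaving out each library. For the double mutant against wild type edgeR's quasi-likelihood test called 6006 loci, DESeq2 6555 and limma 5839.

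All 34 genes are named. Values of every library are given for the gene with the lowest adjusted p of each role group in each comparison with wild type, for genes that stand apart from their group and for gene pairs that passed; of the other lists, genes were taken by the lowest adjusted p, and further genes of those lists were named after their values were seen. The 34 genes and the lists were chosen with earlier results of these data known. Same-numbered libraries of different genotypes had correlations of their deviations of -0.15 to 0.11, so replicate numbers do not pair libraries. PSBQ1 is the gene that the table calls PSBQA. RefSeq locus tags of TAIR10.1 matched all 34 genes, and its coordinates are not used. 1 gene of a marker list is not reported by name here.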

Additional observations from a re-analysis of the deposited data

Results flagged for a closer look

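The effect of the djc62 insertion on 19 of the 34 genes differed between plants with and without the djc31 insertion, by limma's test of the difference itself: the log2 change from djc31 to the double mutant lay below that from wild type to djc62, past an adjusted p of 0.05. The log2 differences between those changes were, in order of adjusted p, PSAO (-0.91), PSAE2 (-0.70), PSBQ2 (-0.74), PSBR (-0.77), PSAN (-0.82), PSAE1 (-0.75), LHCB4.2 (-0.67), PSAH2 (-0.51), PSAD2 (-0.50), LHCB4.3 (-0.61), LHCB4.1 (-0.68), PSAK (-0.72), PSBW (-0.61), LHCA3 (-0.60), PSBX (-0.66), PSAD1 (-0.61), PSAL (-0.60), PSAF (-0.59) and LHCA4 (-0.66). For each of them the change in the double mutant was lower than the sum of both single-mutant changes. Of all loci tested 15.4% were lower and 15.8% higher in this contrast, and of the 19 values that of PSAE2 alone held under every alternative. The contrast rests on all 4 genotypes, so single libraries of each enter it. DJC31 and DJC62 transcripts were also lower in the double mutant than in the single mutants, and the part of that difference in the contrast was not tested. Omission of djc31 replicate 3 gave 29 such genes, and omission of djc62 replicate 1 or wild-type replicate 2 gave 5. The lowest count was 4, without double-mutant replicate 2.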

How the results depend on the processing

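Of 114 calls on single genes over the 7 comparisons, 40 held under every alternative; of their 2603 alternatives 2115 kept the call, 486 fell short of the threshold and 2 reversed. Scaling to equal totals turned the log2 change of PSAH1 in the double mutant against wild type to 0.242, and against djc31 those of LHCA6 to 0.0955 and of PSBY to 0.0423. It gave 12 genes higher in djc31, 1 higher and 15 lower in the double mutant, 0 lower than in djc62, and in the non-additive contrast 1 higher and 9 lower. With no filter on low values 0 genes were higher in djc31, 8 lower in the double mutant, 0 lower than in djc62, 8 lower in djc62 than in djc31, and 2 lower in the non-additive contrast. A fit of only the compared genotypes called 0 higher and 0 lower in djc31, 5 lower in the double mutant than in djc62, and 4 lower in djc62 than in djc31. On recovered reads edgeR called 17 higher in djc31 and 4 lower in the double mutant than in djc62, and DESeq2 21 and 8, with 30 lower in the non-additive contrast. The cause of these shifts was not tested.

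Replicate numbers do not pair the libraries. With a replicate block 2 genes were higher and 0 lower in djc31, 1 had a call below djc62 in the double mutant, 9 were lower in the non-additive contrast, and the PSAE1 to PSAE2 ratio had an adjusted exact permutation p of 0.0527. A same-number correlation over 0.1 was found in 1 of 18 library pairs, and 2 of 12 libraries were closest to a library of their own number.

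Leaving out 1 library gave 0 to 16 genes higher and 0 to 1 lower in djc31, 2 to 7 lower in djc62, and 9 to 25 lower in the double mutant. The double mutant had 29 to 34 genes lower than djc31 and 0 to 3 lower than djc62, djc62 had 6 to 28 lower than djc31, and the non-additive contrast 4 to 29. In no other comparison or direction did an omission call a gene. Adjusted exact permutation p-values of the ratios ran from 0.121 to 0.319 for PSAD, 0.00591 to 0.0441 for PSAE, 0.0711 to 0.398 for PSAH, 0.0562 to 0.202 for PSBO, 0.005 to 0.202 for PSBQ, 0.005 to 0.295 for LHCB4.1 to LHCB4.2, and 0.0225 to 0.188 for LHCB4.1 to LHCB4.3. Counting error, at most 2.93% for a value of these genes, was below the median spread within each genotype.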

Other observations

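LHCA6 and LHCA5 join photosystem I to the chloroplast NDH complex, which returns electrons to the plastoquinone pool. After LHCA6 was seen to fall in djc31 against the direction of the other photosystem genes, 12 nucleus-encoded genes of the NDH complex were looked up, so the list was chosen after that result and is given as a description. Of the 11 tested (NDHL was listed at 0), 5 were lower in djc31, 6 in djc62 and 9 in double-mutant plants, and none was higher, where 14.2%, 13% and 15.5% of all loci were called lower, with median log2 changes of -0.15, -0.44 and -0.62 against -0.01, -0.0046 and 0.02 over all loci.

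NDHM, PNSB2, PNSB3, PNSL1 and PNSL3 were lower in all 3 mutants, as LHCA6 was. NDHM, a subunit of the part of the complex that binds ferredoxin, fell from 2319 ± 229 normalised reads (SD, n = 3) in wild type down to 1379 ± 228 in djc31, 1659 ± 45.6 in djc62 and 1465 ± 39.0 in double-mutant plants (limma adjusted p = 0.000124, 0.00648 and 0.000558). PNSL3, a lumenal subunit, went from 1079 ± 73.1 to 825 ± 158, 672 ± 62.4 and 557 ± 21.8 (limma adjusted p = 0.0305, 0.000878 and 4.6e-05). PNSB5 had a positive log2 change in djc31 (0.27, adjusted p = 0.0713) and passed no test against wild type.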
